A study of Panicum sumatrense with 28 samples.

Results

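Young leaf was compared with plumule in the genotype JK-8 of little millet, Panicum sumatrense, a cereal grown for its small grains, with 3 libraries of young leaf taken at 13 days after sowing and 3 libraries of plumule taken at 3 days. These 6 libraries were chosen by the tissue in their labels, out of 28 libraries of 10 tissues in the atlas. All plants had the same genotype and were raised in a growth chamber, and the labels name no treatment; the pair differs in organ and in age, and these cannot be told apart. Nothing in the labels says that the libraries of a tissue were grown as separate plants. The p-values therefore measure the spread between libraries of a tissue, which may be technical. In the main tests of single transcripts this spread was shared over the tissues of all 28 libraries. RNA was taken from whole pieces of tissue; a transcript can be lower because fewer cells hold it or because each cell holds less of it, and these cannot be told apart.

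The plumule is the shoot of the embryo: the shoot tip and the first folded leaves, which are driven through the soil on the reserves of the grain. The leaf at 13 days is in the light, where it fixes carbon. In leaves of grasses, a small number of proteins of the photosynthetic apparatus is known to take a large part of the messenger RNA. The deposited table names transcripts by identifiers of a de novo assembly and does not pair them with gene names. For this reason no pathway or tissue marker was analysed here, the tissue labels could not be checked against markers, and transcripts are described by their level and by the tissues in which they occur.

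Values are TPM (a read share per transcript, fixed to the same sum in each library and corrected for transcript length) that the authors multiplied by a TMM factor, a scaling per library. They are called values here. Depth is unknown, since such values keep no read totals.

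Plumule library 1 stood apart from the other plumule libraries. Its Spearman's rho over the 77548 transcripts that reached a value of 1 in at least 2 of the 28 libraries was 0.717 with library 2 and 0.678 with library 3, while libraries 2 and 3 had 0.833 with each other. It was closer to panicle early library 1, a tissue of 61 days, with a rho of 0.782. Transcripts that reach 1 only in these 2 libraries pass the filter because both hold them. This can raise that rho and lower those with plumule libraries 2 and 3, by an amount that was not tested. Plumule library 1 had 12536 transcripts at 1 or more that were at 0 in plumule libraries 2 and 3. Of these, 7122 were tested and 4867 reached 1 in panicle early library 1. The young leaf libraries had rho of 0.832 to 0.844 with one another, and young leaf with plumule ran from 0.611 to 0.699. These correlations are across transcripts, which are not independent replicates. Plumule library 1 held 4438 transcripts at a value of 5 or more that were at 0 in plumule libraries 2 and 3, and they took 4.33% of its total. The same count was 311 for library 2 and 1060 for library 3. Of the 4438, 1801 (40.6%) reached 1 in panicle early library 1 and 784 (17.7%) in radicle library 2, but between 24 and 160 in each of the other 23 libraries outside plumule. In panicle early libraries 2 and 3 the numbers were 39 and 50, and in radicle libraries 1 and 3 they were 62 and 24. Whether plumule library 1 holds RNA of other samples was not tested, and its values and its number of detected transcripts are to be read with that limit.

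**Figure D1:**
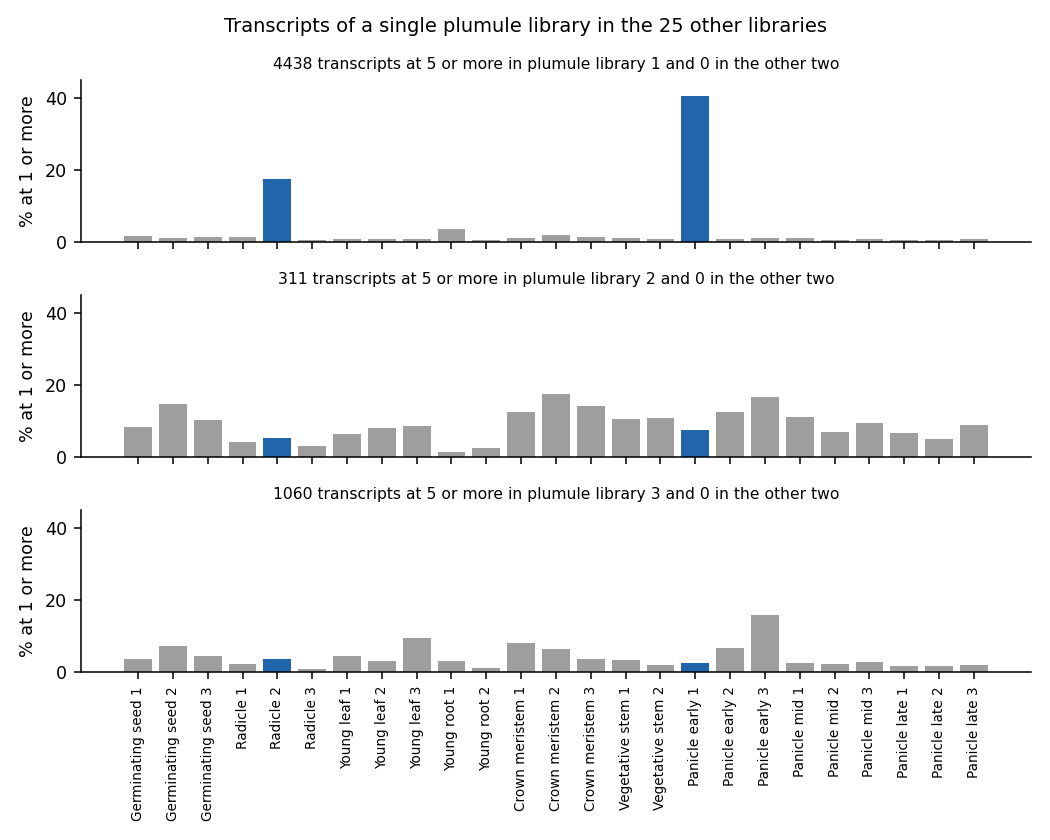
Share (vertical, percent) of the transcripts found at 5 or more in 1 plumule library and at 0 in the other two that reached a value of 1 in each of the 25 libraries outside plumule (horizontal), 1 panel per plumule library. Those of plumule library 1 recur in panicle early library 1 (40.6%) and radicle library 2 (17.7%), drawn in blue.

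Transcript abundance in young leaf was concentrated in far fewer transcripts than in plumule. The 10 most abundant transcripts of a library took 10.1%, 9.999% and 10.3% of the total in young leaf libraries 1, 2 and 3, against 4.20%, 4.07% and 4.84% in plumule libraries 1, 2 and 3. The 100 most abundant took 35.4% ± 0.580 in young leaf and 15.1% ± 0.956 in plumule (SD, n = 3 each), or 15.4% ± 1.06 in plumule without library 1 (n = 2). To reach 50% of the total, 394, 347 and 334 transcripts were needed in young leaf, against 1810, 1496 and 1548 in plumule. Values of 1000 or more were found for 132, 136 and 139 transcripts in young leaf and for 43, 41 and 46 in plumule. The tissues did not overlap in any of these measures. An exact two-sided permutation test gave p = 0.1 for each of them, the smallest value that 3 against 3 libraries allow.

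**Figure D2:**
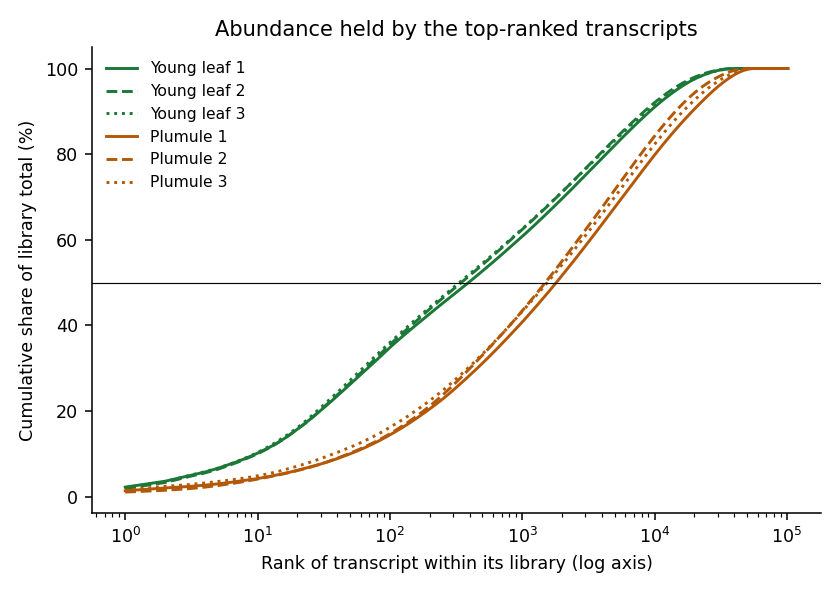
Cumulative share of the library total (vertical, percent) against the rank of the transcript in its library (horizontal, log axis), 1 line per library. The young leaf lines pass 50% at 334 to 394 transcripts and the plumule lines at 1496 to 1810.

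Fewer transcripts were detected in young leaf. Depth is unknown, and the concentration given above leaves a smaller share for the other transcripts of young leaf. The part of either in these counts was not tested. At a value of 1 or more there were 31168, 29631 and 31201 transcripts in young leaf libraries 1, 2 and 3, against 45996, 37235 and 41857 in plumule libraries 1, 2 and 3. The mean difference was -11029 (exact two-sided permutation p = 0.1, the smallest possible). Without plumule library 1 it was -8879, where 3 against 2 libraries allow no p below 0.2. With all libraries kept and rescaled to the same sum, it was -13613. At a value of 5 or more the means were 17442 ± 589 in young leaf and 21240 ± 2372 in plumule (SD, n = 3 each), and the highest young leaf library, with 17989, lay below the lowest plumule library, with 19087.

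Of 77548 transcripts tested, 6101 were higher in young leaf (7.87%) and 10891 lower (14.0%), by limma at a Benjamini-Hochberg adjusted p under 0.05 together with a change of 1 or more on the log2 scale. A call in either direction was thus made for 21.9%. The median log2 difference of the risers was 1.85 and that of the fallers -1.74. A value of 1 was added before the log2 was taken, which understates changes of low transcripts. On that scale 3462 of the rises (56.7%) and 6633 of the falls (60.9%) were below 4-fold. By at least 16-fold, 302 transcripts (0.389% of those tested) rose and 507 (0.654%) fell. With a pseudocount of 0.1 in place of 1, 1319 rose and 3195 fell by at least 16-fold. The libraries of the tissues did not overlap for 5582 of the risers and 9258 of the fallers; over all tested transcripts, 13.0% had every young leaf library above every plumule library and 20.9% every young leaf library below.

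Without plumule library 1, 5850 of 72496 tested transcripts were higher (8.07%) and 11772 lower (16.2%). The fits shared 5587 rises, which is 91.6% of the rises with that library and 95.5% of those without it, and 9826 falls, 90.2% and 83.5%. A further 1946 falls were called only without it. The excess of falls depended on the scaling of the libraries. Lower transcripts were 64.1% of the calls as deposited and 66.8% without plumule library 1, but 75.9% once every library was rescaled to the same sum (called a common sum from here on). Quantile normalization gave 48.1% and median centring 49.0%. The median log2 difference over all tested transcripts was -0.19 as deposited. It was 0.08 with median centring, -0.38 for the common sum, -0.06 without plumule library 3, and 0 both with quantile normalization and without plumule library 1.

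**Figure D3:**
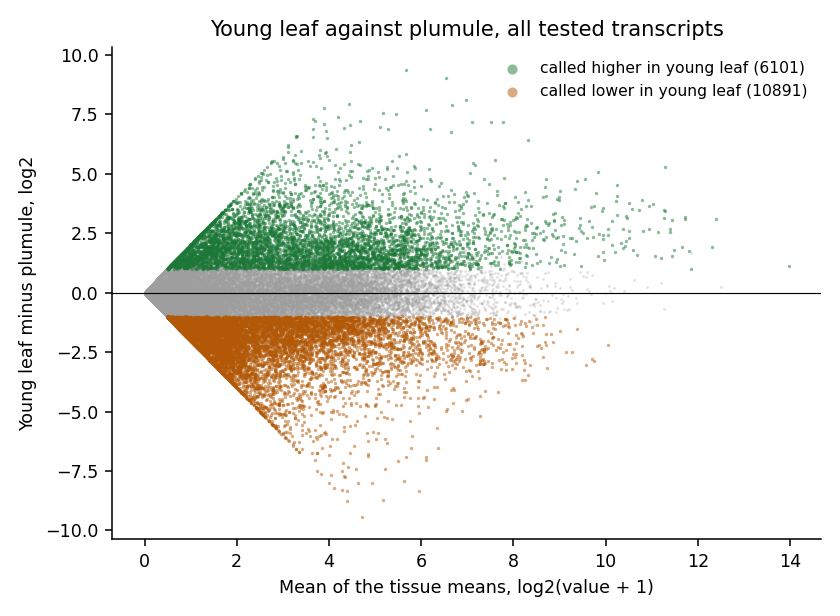
Difference between young leaf and plumule (vertical, log2) against the mean of the tissue means on the log2(value + 1) scale (horizontal), 1 point per tested transcript. Called rises (6101, green) reach the highest levels; called falls (10891) are orange and transcripts that were not called are grey.

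The rises and the falls lay at different levels of abundance. Among the 100 transcripts with a mean of 1000 or more over both tissues, 83 were higher in young leaf and 4 lower, with a median log2 difference of 2.64. A mean of raw values is led by the higher tissue, and young leaf held more values of 1000 or more. This class is therefore a description and not independent of the concentration given above. Between 100 and 1000, 484 of 1341 were higher and 380 lower. Between 10 and 100, 2449 of 11572 were higher and 2755 lower. Between 1 and 10 the balance was the other way, with 2772 of 25487 higher and 6448 lower and a median of -0.53. Below 1, which holds 39048 of the tested transcripts, 313 were higher and 1304 lower. The class above 1000 kept its direction under the other scalings, with 74 higher and 5 lower for a common sum, 44 and 14 for quantile normalization and 84 and 4 for median centring; without plumule library 1 it had 79 higher and 4 lower of 99. The balance of the middle classes moved with the scaling. From 100 to 1000 a common sum turned it, with 399 higher and 473 lower, and from 10 to 100 median centring did, with 3057 higher and 2274 lower. From 1 to 10 the excess of falls was almost lost with quantile normalization, with 4215 higher and 4253 lower. Below 1 the balance turned with quantile normalization, to 797 higher and 228 lower, and with median centring, to 698 and 217.

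The top ranks are given as a description, since a ranking by the level in 1 tissue favours transcripts that are higher there. All 10 of the most abundant young leaf transcripts (10 with median centring, 9 for the common sum and 5 after quantile normalization) and 94 of the top 100 were higher in young leaf, and none of these 100 was lower. Of the 100 most abundant plumule transcripts, 29 were higher in young leaf, 48 were lower and 23 were not called. The top 100 of the tissues shared 35 transcripts. In the fit without plumule library 1, 90 of the young leaf top 100 were higher and 0 lower, and of the plumule top 100, 25 were higher and 49 lower. With quantile normalization, which gives every library the same distribution, 54 of the young leaf top 100 were higher and 6 lower, and 3 of the plumule top 100 were higher and 63 lower. As a description of the calls themselves, risers made up 61.9%, 64.6% and 65.3% of the total in young leaf libraries 1, 2 and 3, against 15.7%, 12.9% and 19.5% in plumule libraries 1, 2 and 3. Fallers made up 5.10% ± 0.787 in young leaf and 38.6% ± 4.66 in plumule (SD, n = 3 each).

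The largest rise among transcripts without overlap was TRINITY_DN1642_c1_g1_i1. Its values were 1045, 1593 and 1342 in young leaf libraries 1, 2 and 3, against 0.967, 0.480 and 1.58 in plumule libraries 1, 2 and 3. All young leaf libraries were high and all plumule libraries were near the level of 1 that counts as detected. The log2 difference was 9.38 (SE 0.52, limma adjusted p = 9.7e-12), and 9.39 without plumule library 1. Beyond these tissues it had 181 ± 16.6 in crown meristem and 127 ± 70.8 in panicle mid (SD, n = 3 each). In germinating seed and radicle, the other young tissues, it was low, with 3.18 ± 1.49 and 2.79 ± 0.377 (SD, n = 3 each).

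The most abundant rise was TRINITY_DN36129_c0_g1_i1, the top transcript of all 6 libraries. It had values of 25455, 21746 and 24419 in young leaf libraries 1, 2 and 3, against 12110, 8361 and 12733 in plumule libraries 1, 2 and 3. The tissues did not overlap, but the transcript was already abundant in the plumule. The log2 difference of 1.13 (SE 0.33, limma adjusted p = 0.011) lay near the threshold. The call ended with a common sum (0.68), with only young leaf and plumule libraries in the fit (adjusted p = 0.065) and without plumule library 2 (0.94), and the difference was 0 with quantile normalization, since the transcript ranks first in each of these libraries; its adjusted p ran from 0.00066 to 1 over the alternatives. Its next level was 3566 ± 295 in panicle early, and its lowest mean was 906 ± 457 in young root (n = 2).

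The largest fall was TRINITY_DN21601_c0_g1_i1. It was listed at 0 in all 3 young leaf libraries, against 753, 626 and 704 in plumule libraries 1, 2 and 3 (limma adjusted p = 2.5e-11). No fold is given against a tissue listed at 0. Young leaf was the only one of the 10 tissues with 0 in every library: the transcript had 634 ± 185 in radicle, 403 ± 136 in germinating seed and 414 ± 2.21 in young root (n = 2). It was also low in the later panicle, at 1.71 ± 2.97 in panicle mid and 1.16 ± 2.01 in panicle late (SD, n = 3 each).

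The most abundant fall was TRINITY_DN62851_c0_g1_i1. Its values were 378, 387 and 219 in young leaf libraries 1, 2 and 3, against 1914, 2945 and 2217 in plumule libraries 1, 2 and 3. The young leaf libraries were all far below the lowest plumule library. It fell by 2.87 on the log2 scale (SE 0.21, limma adjusted p = 5.0e-10), and by 3.00 without plumule library 1. Young leaf was also its lowest tissue of all: the next was panicle early with 934 ± 72.7, and radicle was highest with 5171 ± 467 (SD, n = 3 each).

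Not every large or abundant transcript was called. The most abundant transcript that was not called was TRINITY_DN34287_c0_g2_i1, with 6641, 6167 and 6290 in young leaf libraries 1, 2 and 3, against 5903, 3367 and 7681 in plumule libraries 1, 2 and 3. The plumule libraries lay on both sides of the young leaf libraries, and the log2 difference was 0.25 (SE 0.64, adjusted p = 0.91). With quantile normalization it was called lower, at -2.20 (limma adjusted p = 0.016). Both tissues were far above radicle, at 6.97 ± 3.98 (SD, n = 3), and young root, at 39.7 ± 34.5 (n = 2).

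The largest difference that was not called was that of TRINITY_DN11647_c1_g1_i8. It had values of 8.61, 21.7 and 36.8 in young leaf libraries 1, 2 and 3, against 1.62, 1.34 and 0.504 in plumule libraries 1, 2 and 3. The tissues did not overlap, and the log2 difference was 3.27 (SE 1.40, limma adjusted p = 0.095). The spread is shared over all tissues, and the panicle mid libraries of this transcript ran from 0.226 to 1209. With only young leaf and plumule libraries in the fit it was called (adjusted p = 0.0027). Over all alternatives its adjusted p ran from 0.0027 to 0.25. Its highest level, 35216 ± 8502 in panicle late (SD, n = 3), was far above both.

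**Figure D4:**
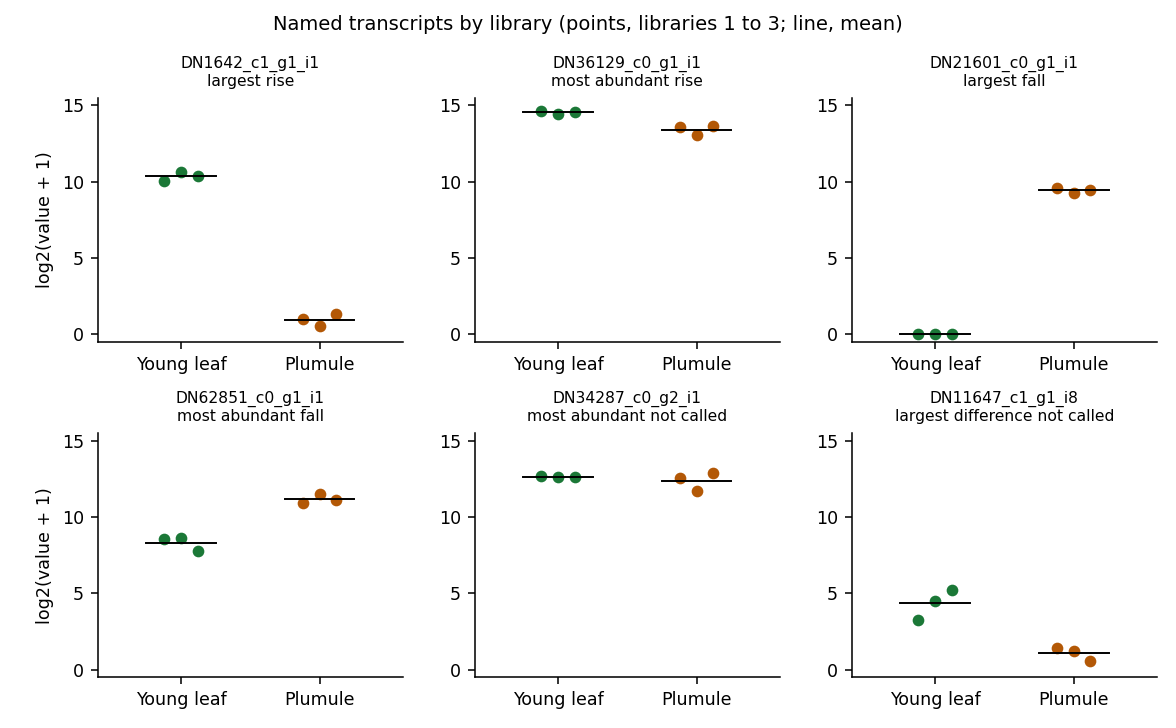
Values of the 6 named transcripts on the log2(value + 1) scale (vertical) in the 3 young leaf libraries (green, left) and the 3 plumule libraries (orange, right); each point is a library and each line a mean. The tissues overlap in 1 panel, that of TRINITY_DN34287_c0_g2_i1.

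Some transcripts were listed in 1 of these tissues only. At a value of 1 or more in all 3 young leaf libraries and at 0 in all 3 plumule libraries there were 406 transcripts, of which 394 were called, 46 had a mean of 10 or more and 3 a mean of 100 or more. In the reverse case there were 1491 transcripts at 0 in young leaf and listed in plumule. Of these, 1325 were called, 222 had a mean of 10 or more and 8 of 100 or more. Over all tested transcripts, 7.87% were called higher and 14.0% lower. The listing itself separates the same libraries, which favours a call, so the counts of calls are a description and no separate test. A count over fewer libraries can only be as large or larger. The second count was 3788 and the first 570 without plumule library 1. The first was 674 without plumule library 3, 810 without young leaf library 1 and 786 without young leaf library 2. Most of these transcripts also occurred elsewhere. Of the 406, 285 (70.2%) had a mean of 1 or more in at least 1 of the other 8 tissues, and of the 1491, 1428 (95.8%) did. There were 52 and 13 of them at 0 in all 22 libraries of the other tissues.

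The other 8 tissues, whose libraries entered the estimate of the spread but not the difference, showed where the called transcripts occur in the rest of the plant. Risers were detected at a tissue mean of 1 or more most often in panicle mid (76.0%), panicle late (75.0%), panicle early (72.0%) and crown meristem (67.0%), and least often in radicle (49.7%). Fallers were detected most often in crown meristem (77.3%), germinating seed (76.5%), vegetative stem (76.0%) and panicle early (75.8%), and least often in radicle (59.0%) and young root (59.4%). Over all tested transcripts, which include many low ones, the shares ran from 39.1% in radicle to 48.9% in panicle mid. Without plumule library 1 the fallers were detected less widely, in 68.3% in crown meristem, 68.4% in germinating seed and 56.6% in panicle late, while the shares of the risers were 67.9%, 61.2% and 76.0%, and those of all tested transcripts 50.1%, 51.5% and 48.3%. The share of risers then also exceeded that of fallers in panicle early (73.5% and 67.7%) and more clearly in young root (60.7% and 53.6%). Under a common sum, quantile normalization and median centring, panicle mid still had the highest share of the risers (72.6%, 73.6% and 75.8%). Crown meristem still had that of the fallers (77.9%, 81.4% and 84.7%). Fallers in panicle mid were at 71.5%, 74.7% and 77.0%, so of these scalings only the common sum kept risers above fallers there. In panicle late risers stayed above fallers, with 71.6% and 66.3%, 71.6% and 69.8%, and 74.1% and 71.0%.

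**Figure D5:**
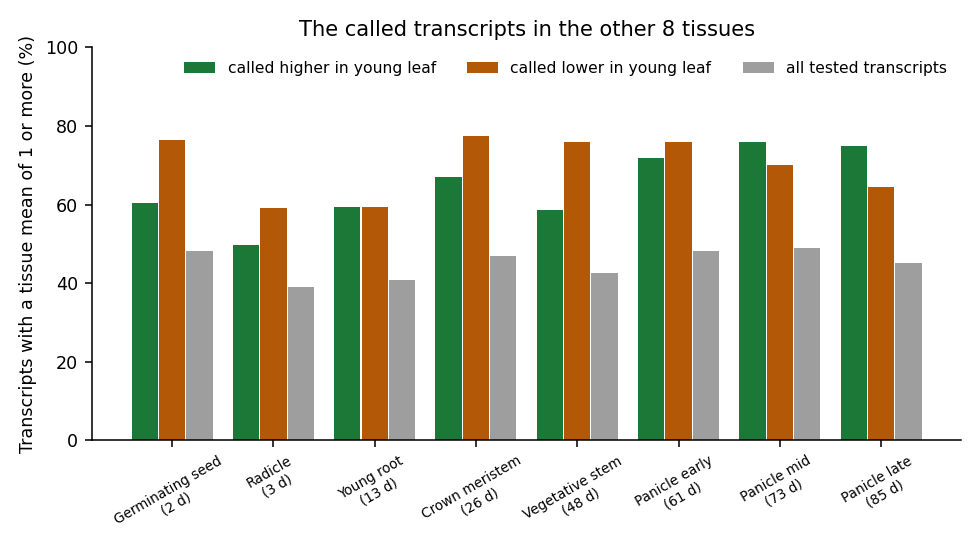
Share of transcripts with a tissue mean of 1 or more (vertical, percent) in the 8 tissues other than young leaf and plumule (horizontal, ordered by days after sowing), for transcripts called higher in young leaf, called lower in young leaf and all tested. As deposited, risers exceed fallers in panicle mid (76.0% and 69.9%) and panicle late (75.0% and 64.5%). The order in panicle mid turned with quantile normalization and with median centring.

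By share of the library total, the fallers were as abundant in several tissues as in the plumule. They took 41.5% ± 0.531 in vegetative stem (n = 2), 39.3% ± 3.33 in germinating seed and 38.8% ± 0.979 in crown meristem (n = 3 each), against the 38.6% ± 4.66 in plumule given above. Their share was 14.8% ± 1.29 in panicle late and 9.83% ± 2.92 in young root (n = 2). The risers took 21.7% ± 3.16 in panicle early and 18.7% ± 1.99 in panicle mid (n = 3 each), the highest outside young leaf, and 4.14% ± 1.33 in young root (n = 2). In young root libraries 1 and 2 the single most abundant transcript took 32.8% and 42.7% of the total, which leaves less for all others; the part of this in the low shares was not tested.

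The place of both tissues among all 10 is a description, since the calls themselves put one above the other. Of the risers, 4585 of 6101 (75.2%) had their highest mean of all 10 tissues in young leaf, and 293 (4.80%) had their lowest, untied, in plumule. Of the fallers, 3334 of 10891 (30.6%) had their highest mean in plumule, and 4022 (36.9%) their lowest, untied, in young leaf. Over all tested transcripts, young leaf was highest in 11.6% and lowest, untied, in 8.21%, and plumule in 15.2% and 1.02%. Without plumule library 1, plumule was the highest tissue for 4363 of 11772 fallers (37.1%). Over all tested transcripts the order then turned, with young leaf highest in 12.4% and plumule in 11.7%.

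The root offers a pair of the same ages, young root at 13 days and radicle at 3 days. It shares no library with the shoot pair. Radicle library 3 and young root library 2 have identifiers of another library series than the other libraries of both pairs. Radicle library 2 is one of the libraries in which transcripts of plumule library 1 recurred, as given above. In the root, 8176 of 77548 transcripts were higher in young root (10.5%) and 6151 lower (7.93%), 18.5% in either direction. Transcripts higher at 13 days in both organs numbered 1370, which is 22.5% of the shoot rises and 16.8% of the root rises. Those lower in both numbered 1927, which is 17.7% of the shoot falls and 31.3% of the root falls. Opposite calls were fewer. Of the shoot rises, 374 (6.13%) fell in the root, where 7.93% of all tested transcripts fell. Of the shoot falls, 1061 (9.74%) rose in the root, near the 10.5% of all tested transcripts. All tested transcripts include 39048 with a mean below 1 over young leaf and plumule. Of those only 313 were higher and 1304 lower in the shoot pair. The shoot calls and all tested transcripts thus differ in level, and their shares are not a like comparison. Opposite calls were not counted under the other scalings. Without plumule library 1 the shared calls were 1353 rises and 1823 falls. Without radicle library 2 they were 1239 and 2004, and with the library series as a covariate 1441 and 1998. The counts depended on the scaling, with 380 shared rises and 3622 shared falls after a common sum. The root libraries were dominated by a few transcripts, the top one taking from 17.0% to 29.5% of the total in radicle and more in young root as given above, and their part in the counts was not tested. Most calls of the shoot pair were not called in the same direction in the root pair, with 2 young root libraries; whether the organs differ was tested separately as an interaction.

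The interaction, the young leaf minus plumule difference less the young root minus radicle difference, was positive for 6204 transcripts (8%) and negative for 11178 (14.4%), 22.4% in all, by limma at the same thresholds. The interaction holds the shoot difference itself, so its sign tends to follow that of the shoot calls: of the positive ones 3208 were shoot rises, and of the negative ones 5822 were shoot falls. The counts were 5914 positive and 12557 negative without plumule library 1. Without radicle library 2 they were 6266 and 10027, and with the library series as a covariate 6355 and 11928. With median centring the balance turned round, to 10526 positive and 6557 negative, and with quantile normalization to 8682 and 7544; a common sum gave 6375 and 8549. Of the named transcripts, TRINITY_DN1642_c1_g1_i1 had a root difference of 1.23 (SE 0.58, limma adjusted p = 0.16) and TRINITY_DN21601_c0_g1_i1 one of -0.57 (SE 0.62, adjusted p = 0.75), while TRINITY_DN62851_c0_g1_i1 also fell in the root, by 1.01 (SE 0.23, adjusted p = 0.0024).

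Related transcripts did not always move together. The assembler puts contigs that share sequence into 1 component; the copies can be members of a gene family, alleles or copies from different subgenomes, and reads may be split among them. There were 5727 components with 2 or more tested transcripts, together 12643 transcripts. In 897 of these components (15.7%) 2 or more transcripts were called. In 204 all called members were higher in young leaf, in 464 all were lower, and in 229 (25.5%) they went both ways. Over all tested transcripts, 7.87% were called higher and 14.0% lower. How often unrelated transcripts go both ways was not tested. Without plumule library 1 the opposite calls were in 218 of 874 components (24.9%). In 56 components at least 1 member rose and another fell by at least 4-fold.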

How the data were processed

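RNA from 10 tissues of little millet was sequenced as 28 libraries; the 6 of young leaf and plumule are described here. Per the labels and the series design text, TruSeq libraries were made, reads were assembled with Trinity, and abundances were estimated with kallisto as TPM; CASAVA and Trimmomatic are named in the submitters' processing notes. Their versions are not stated there. The deposited signal is TPM scaled by TMM by the authors, per the name of their table, for 101935 assembled isoforms, 1 per assembled gene. It holds no read counts, so depth is unknown and no counting interval or count model was used. RNA was extracted by either of 2 methods, without a statement of which library had which. All 6 libraries belong to 1 of 2 series of library identifiers, the one with 15 libraries.

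Transcripts at 1 or more in at least 2 of the 28 libraries were kept (77548). limma 3.58.1 in R 4.3.3 was fitted to log2(value + 1) for all 28 libraries, with tissue means as the only terms and the variance moderated along an intensity trend (18 residual degrees of freedom). Log2 differences on this scale understate changes of low transcripts. Tests were two-sided; a call needed a Benjamini-Hochberg adjusted p under 0.05 together with a change of 1 or more on the log2 scale. The fitting code was tested on simulated data. Values per library were compared by exact permutation tests in Python 3.11.15 with scipy 1.17.1, pandas 2.3.3 and numpy 2.4.6.

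The tissues, transcripts, comparisons and alternatives were chosen with earlier results of these data known. The named transcripts are, among calls whose libraries do not overlap, the largest and the most abundant in each direction, and, among transcripts not called, the most abundant and the one with the largest difference. Alternatives were other pseudocounts, filters, scalings, covariates, weights, no variance trend, fits of the compared tissues only (with the filter taken over their own libraries), and leaving out each library of the compared tissues. Leaving out plumule 1, panicle early 1 and radicle 2 together, and a filter over the 6 libraries, were chosen after seeing the data. Replicate numbers did not pair young leaf with plumule libraries.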

Additional observations from a re-analysis of the deposited data

Results flagged for a closer look

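The difference between the 13-day and 3-day tissues differed between shoot and root by an interaction term in limma for 4 named transcripts. They were named for a large or abundant shoot difference, which the interaction contains, so these values are a description and no independent test. The young leaf minus plumule difference exceeded the young root minus radicle difference by 8.16 on the log2 scale for TRINITY_DN1642_c1_g1_i1 (SE 0.77, adjusted p = 5.8e-08) and by 1.41 for TRINITY_DN36129_c0_g1_i1 (SE 0.49, adjusted p = 0.041). For TRINITY_DN21601_c0_g1_i1, listed at 0 in young leaf, the fitted difference between the differences was -8.87 (SE 0.84, adjusted p = 5.3e-08), which depends on the pseudocount. For TRINITY_DN62851_c0_g1_i1 it was -1.86 (SE 0.31, adjusted p = 9.7e-05). Over all tested transcripts the interaction was positive for 6204 and negative for 11178. A negative sign does not mean a weaker change in the shoot, since 5822 of the negative ones were shoot falls. Groups of 2 or 3 libraries are too small for a check of single outlying values.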

How the results depend on the processing

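Depth is unknown, so what low values can show is not known, and scalings set the balance of rises and falls. Counts of rises and falls were 3759 and 4878 with a pseudocount of 5 and 1530 and 2320 with a mean of at least 20, where fewer transcripts were tested; counts at 16-fold or more were 107 and 109, 151 and 330, and with a pseudocount of 0.1 they were 1319 and 3195. The share of calls that were falls was 68.7% and 56.5% with pseudocounts of 0.1 and 5, 60.3% with the mean filter, 75.9% with a common sum, 48.1% with quantile normalization, 49.0% with median centring, 66.3% with library weights and 66.7% without plumule 1, panicle early 1 and radicle 2 together. The median log2 difference was -0.42 and -0.062 with those pseudocounts, -0.38 with a common sum, 0.00 with quantile normalization, 0.084 with median centring, -0.038 without the 3 libraries together, and -0.35 both with a filter over the 6 libraries and with only these in the fit. The interaction was positive for 1570 and negative for 2656 transcripts with the mean filter and 10526 and 6557 with median centring, and negative for 6876 with a pseudocount of 5. Shared rises and falls of shoot and root were 624 and 998 with a pseudocount of 5, 582 and 813 with the mean filter and 380 and 3622 with a common sum. Transcripts at 5 or more in young leaf and 0 in plumule numbered 66, and 294 in the reverse case. TRINITY_DN34287_c0_g2_i1 turned to -2.20 with quantile normalization. Where no reason is given, the cause was not tested.

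Leaving out each of the 6 young leaf and plumule libraries in turn gave 5342 to 5905 rises and 9667 to 11772 falls, 253 to 373 and 492 to 553 at 16-fold, a share of falls of 62.5% to 67.0% and a median of -0.22 to 0.00. Leaving out a radicle or young root library gave 6111 to 6311 rises and 10902 to 11273 falls. With each of these 11 libraries left out in turn, interaction counts were 5369 to 6266 and 9875 to 12557 and shared rises and falls 1231 to 1559 and 1757 to 2009. Over the 6 libraries, transcripts listed in young leaf only or plumule only numbered 528 to 810 and 1916 to 3788. A fit with the replicate number as a block gave 6065 rises and 10851 falls; the numbers do not pair young leaf with plumule, since deviations of same-numbered young leaf and plumule libraries correlated at 0.0073, 0.0073 and 0.066.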

Other observations

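Each plumule library had its closest panicle early library in the one with the same replicate number, by Spearman's rho over tested transcripts. Plumule library 1 had a rho of 0.782 with panicle early library 1, and 0.657 and 0.632 with panicle early libraries 2 and 3. Plumule library 2 had 0.742 with panicle early library 2, against 0.676 and 0.731 with libraries 1 and 3. Plumule library 3 had 0.736 with panicle early library 3, against 0.649 and 0.729 with libraries 1 and 2. For plumule libraries 2 and 3 the margins were small, and the limit of the filter given above holds here too. Of the 311 transcripts of plumule library 2 alone, 39 reached 1 in panicle early library 2 but 52 in library 3. Of the 1060 of plumule library 3 alone, 72 reached 1 in panicle early library 2 and 170 in library 3. In the labels, plumule and panicle early libraries of the same number also carry the same index sequence, in different library series; the part of the index was not tested. In the fit with library weights, plumule library 1 received 0.200, the lowest of the 28 libraries, while plumule libraries 2 and 3 received 1.29 and 0.702.

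Of the 4438 transcripts found in plumule library 1 and not in libraries 2 and 3, 2055 reached 1 in panicle early library 1 or radicle library 2, 530 in both, and 3971 in no further library. They took 4.33% of the total of plumule library 1, 0.912% of that of panicle early library 1 and 0.467% of that of radicle library 2. The median SD of log2 values between libraries, over 38500 transcripts with a mean of 1 or more, was 0.24 in young leaf, 0.32 in plumule and 0.25 in plumule without library 1.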
